A study of Homo sapiens with 6 samples.

Results

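The genes described here are 51 genes of the TGF-beta and BMP pathway: ligands, receptors, SMAD transcription factors and their intracellular regulators, extracellular regulators, and target genes. They were taken by gene name from the deposited table, which held 49 of them among 21494 genes, and all 49 passed the filter on low counts. INHBE and GREM1 are not analysed here. RNA-seq was performed on 3 control samples (Control sh) and 3 samples with knockdown of VprBP (VprBP sh), the product of DCAF1, a chromatin-bound kinase and a substrate receptor of an E3 ubiquitin ligase. The labels name all 6 samples as G361, a human melanoma cell line, and give the genotype WT to the Control sh samples and DCAF1 Knockdown to the VprBP sh samples. By the study's methods, stable cell lines were made with lentiviral pLKO.1 vectors and puromycin selection, with a nontargeting control, and a single shRNA sequence against the VprBP coding region was used, so no second shRNA or rescue sample bears on the values below. The labels do not say whether the replicates came from separate cultures, and p-values measure only the spread between these samples, which may be technical.

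TGF-beta, activin and BMP ligands are secreted dimers that bind pairs of type I and type II serine/threonine kinase receptors. The activated type I receptor phosphorylates receptor-regulated SMADs, SMAD2 and SMAD3 on the TGF-beta and activin side and SMAD1, SMAD5 and SMAD9 on the BMP side, and these join the common SMAD4 and enter the nucleus. Latent TGF-beta binding proteins, antagonists such as noggin and follistatin, the decoy receptor BAMBI and the inhibitory SMAD6 and SMAD7 hold the signal in check at successive steps. In melanocytes TGF-beta is known as an inhibitor of growth, and in melanoma it is known also for roles in invasion.

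Total counts ranged from 20714418 to 24828293 in Control sh and from 18195949 to 26883948 in VprBP sh. DCAF1 itself stood at 797, 971 and 838 normalized counts in Control sh replicates 1, 2 and 3 and at 760.3, 507 and 481 in VprBP sh (log2 fold change -0.58, SE 0.17, adjusted p = 0.0125), which is 1.49-fold lower, with no overlap between the groups. The drop no longer passed the test with scaling by library size alone (log2 fold change -0.37, adjusted p = 0.0851) or with replicates 2 and 3 of each group summed into 1 sample (-0.46, adjusted p = 0.0839). Within each group the counts of replicates 2 and 3 were the closest pair, with a chi-square of 2.36 to 2.5 per degree of freedom, against 17.6 to 29.1 for pairs that include replicate 1. The labels also give LD611 as the source name of all 6 samples. The labelled cell type was not borne out by its markers: MLANA, which encodes Melan-A, had at most 5 counts and TYRP1, a melanin synthesis enzyme, at most 4 counts in any sample, PMEL had 28 to 46 counts, MITF had 154 to 312 counts, and the other 4 melanocyte markers listed are not analysed here. The 4 melanocyte markers in the table summed to 199 to 236 normalized counts in the controls and 244 to 308 with the knockdown. Epithelial genes were abundant and differed between the groups. Of 10 urothelial markers in the table, 9 were tested, 5 were lower in VprBP sh (22.0% of all genes), 3 were higher (24.5% of all genes) and 1 was not called. KRT13, UPK1B and TP63 passed the filter in full only in Control sh, and GATA3 only in VprBP sh. The summed level of the 10 lay between 108099 and 119964 normalized counts in the controls and between 30210 and 33751 in VprBP sh. KRT5, a basal keratin, had counts of 48190, 63704 and 73688 in Control sh and 4524, 2582 and 3560 in VprBP sh, TP63, a basal epithelial transcription factor, had 8715, 7670 and 8806 against 9, 8 and 13, UPK1B had 500, 641 and 709 and was at 0 in every VprBP sh sample, and GATA3 had 7, 1 and 0 against 1580, 1334 and 1873. Of 5 fibroblast markers in the table, 4 were tested and 3 of them were lower (22.0% of all genes). These 3, COL1A2, LUM and PDGFRB, passed the filter in full only in Control sh, and COL1A1 was not called. The 5 markers summed to between 768 and 809 normalized counts in the controls and between 459 and 602 in VprBP sh. LUM was at 0 in every VprBP sh sample. These marker differences run alongside every pathway group below, and their part in the results was not tested. Whether both groups are the same cell line was not tested either, and with DCAF1 itself only 1.49-fold lower, a difference of cells and an effect of the knockdown cannot be told apart here. The values below are therefore differences between the samples labelled VprBP sh and Control sh. In bulk RNA, fewer cells of a type and less RNA per cell cannot be told apart.

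The question put to the pathway was which of its steps differed in mRNA level between VprBP sh and Control sh. Where values are given as a pair joined by against, Control sh replicates 1, 2 and 3 come first. A gene was called when its adjusted p, by edgeR's quasi-likelihood test with Benjamini-Hochberg adjustment over all 16756 genes tested, was under 0.05 and its change was over 2-fold. By this rule 30 of the 49 tested genes (61.2%) were called, 11 higher in VprBP sh and 19 lower there. The list was chosen with earlier results of these data known, so the shares given for it describe the list and do not test it. The background was high, since 46.4% of all genes tested were called, 24.5% higher and 22.0% lower. At any fold, 41 of the 49 genes had an adjusted p under 0.05, against 76.4% of all genes, and 41 had groups that did not overlap, against 79.5% of all genes. VprBP sh lay above Control sh for 18 of these (42.2% of all genes) and below for 23 (37.3% of all genes), so the counts at any fold were near the background. Changes over 4-fold were called higher in 8 of the 49 genes, against 11.3% of all genes, and lower in 15 of the 49, against 13.7% of all genes. The 8 higher include BMP7, ID2, ID4 and BAMBI, which passed the filter in full only in VprBP sh. The 15 lower include INHBA, SMAD4, SMAD9, FST and NOG, which passed it in full only in Control sh. These 4-fold counts thus rest in part on genes that were low in the other group. The median log2 fold change was -0.32 over the listed genes and 0.08 over all genes tested, and the median absolute log2 fold change was 1.71 and 0.92. Of the 49 genes, 39 passed the filter level in every sample, 5 passed it in full only in Control sh and 4 only in VprBP sh. When at least 10 counts were required in every sample, 21 of 39 listed genes were called (53.8%), 7 higher and 14 lower, against 35.8% of all genes.

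**Figure D1:**
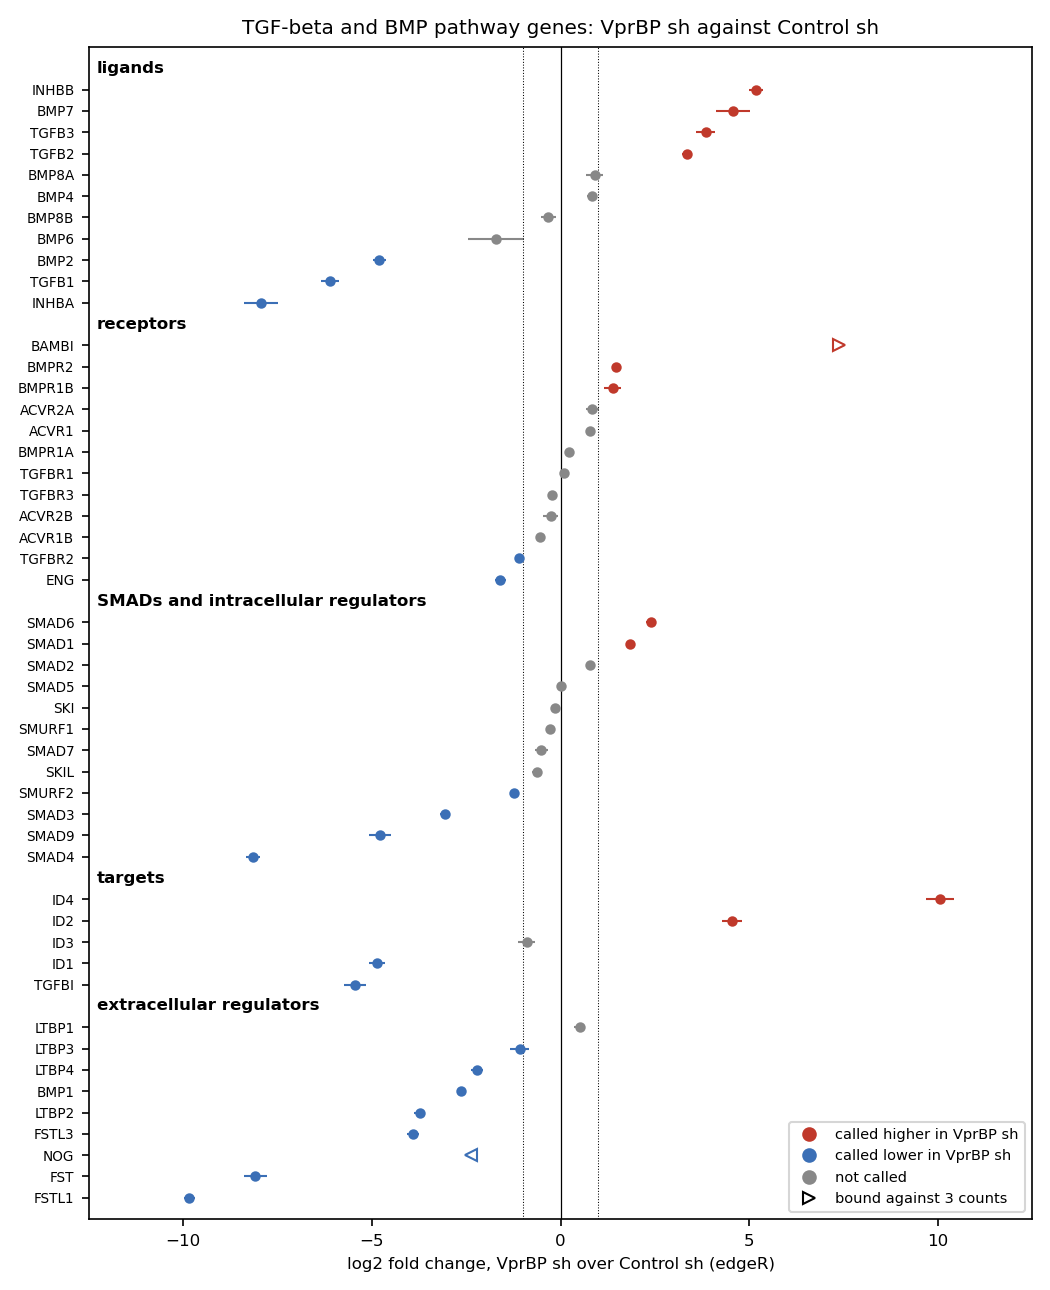
Log2 fold change of each tested gene, VprBP sh against Control sh, with genes grouped by role and bars showing 1 SE of the fit. For BAMBI and NOG an open triangle without a bar marks a bound against the floor of 3 counts, not the fitted value. These bounds are 7.39 for BAMBI and -2.36 for NOG. Of the 9 extracellular regulators 8 were called lower, where 22.0% of all genes were lower. FST and NOG among the 8 passed the filter only through Control sh, and the call of LTBP3 depended on replicate 1. The receptors and SMADs lie on both sides of 0.

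Ligands were called in both directions. Of 11 ligand genes tested, 7 were called, 4 higher and 3 lower, where 46.4% of all genes were called, 24.5% higher and 22.0% lower. Of the 8 that passed the filter level in every sample, 5 were called, 3 higher and 2 lower. TGFB1, the main TGF-beta isoform of many tissues (chr19:41301587-41353922, hg38, minus strand), was measured at 4568, 3352 and 3457 normalized counts in Control sh and at 31.3, 59.2 and 69.8 in VprBP sh (log2 fold change -6.11, SE 0.24, adjusted p = 2.14e-08). This is 69.1-fold lower, with every VprBP sh sample far below the lowest control. TGFB2, a second isoform that needs a co-receptor for efficient receptor binding, stood at 125, 137 and 114 in Control sh and 1139, 1349 and 1333 in VprBP sh (log2 fold change 3.35, SE 0.13, adjusted p = 1.67e-08). TGFB3 stood at 18.6, 20.6 and 29.4 against 432, 293 and 283 (log2 fold change 3.85, SE 0.26, adjusted p = 6.68e-07). Both were higher in every VprBP sh sample than in any control, in the direction opposite to TGFB1. In the annotation, lncRNAs on either strand share up to 22.7% of the exonic bases of TGFB2, and their reads cannot be told apart here because the strand setting of the counting is not stated.

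The activin subunit genes showed the same kind of exchange. INHBA, the beta A subunit of activin A, had 1893, 1154 and 1061 normalized counts in Control sh and 13.4, 3.12 and 1.53 in VprBP sh (log2 fold change -7.95, SE 0.45, adjusted p = 2.14e-07). It passed the filter only through Control sh, and without VprBP sh replicate 1 its log2 fold change was -9.20. The ratio over the summed VprBP sh count was 255 (95% interval 159 to 437), with counting error only. INHBB, the beta B subunit of activin B, had 38.2, 77.2 and 53.1 against 2121, 2059 and 1978 (log2 fold change 5.19, SE 0.19, adjusted p = 1.5e-08), 36.4-fold higher. The groups were apart for both genes. Among the BMP ligands, BMP2, an inducer of bone formation, was lower, with 779, 627 and 648 normalized counts in Control sh and 27.9, 20.8 and 24.5 in VprBP sh (log2 fold change -4.81, SE 0.17, adjusted p = 1.15e-08). BMP7, a ligand known from kidney development, was higher, with 16.2, 1.09 and 5.69 against 163, 181 and 193 (log2 fold change 4.57, SE 0.45, adjusted p = 1.01e-05). BMP7 passed the filter on low counts only through the VprBP sh samples, and without Control sh replicate 1 its log2 fold change was 5.62. BMP4 did not reach a 2-fold change, with 211, 265 and 264 against 424, 456 and 431 (log2 fold change 0.82, SE 0.13, adjusted p = 0.000232), although its groups did not overlap, and a lncRNA on the opposite strand shares up to 16.3% of its exonic bases. BMP6, BMP8A and BMP8B were not called, with log2 fold changes of -1.71, 0.90 and -0.32 and adjusted p-values of 0.0622, 0.00515 and 0.162. For BMP8A the VprBP sh samples were above all controls. BMP8A and BMP8B are near-identical copies that may share reads, and their values are uncertain.

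**Figure D2:**
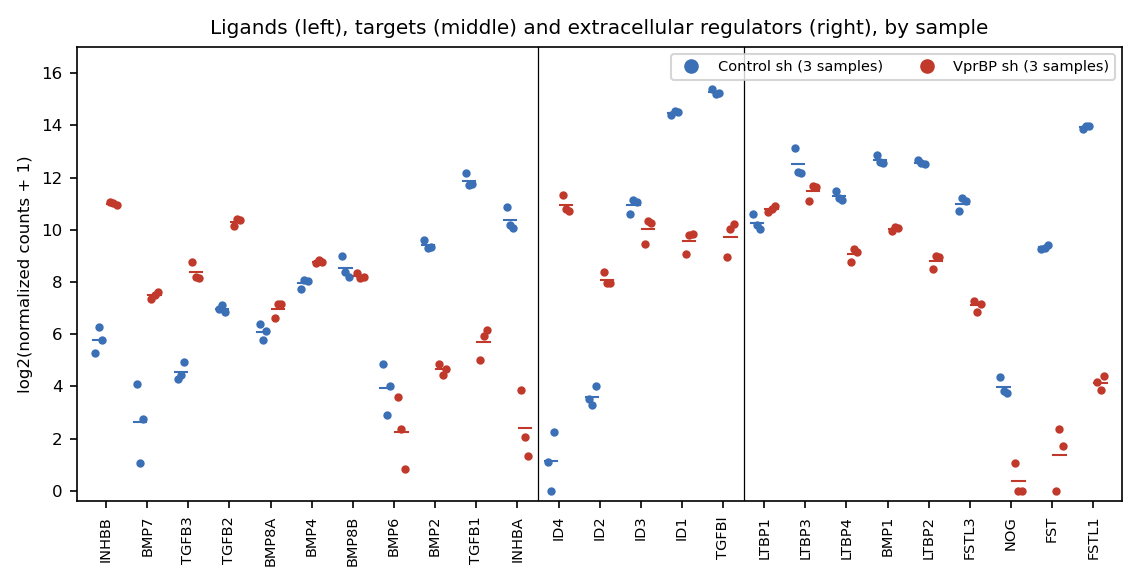
Normalized counts of ligands, target genes and extracellular regulators on a log2(value + 1) axis, with 1 point per sample and a short line at each group mean of the plotted values. In the ligands INHBB, BMP7, TGFB3 and TGFB2 have VprBP sh points above all controls, as do BMP8A and BMP4, which were not called. BMP2, TGFB1 and INHBA have them below, and among the extracellular regulators only LTBP1 has its VprBP sh points above the controls.

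Levels per kilobase of the Ensembl canonical transcript allow genes of a family to be compared with each other. TGFB1 made up 97.9% ± 0.406 (SD, n = 3) of the summed per-kilobase level of the TGF-beta genes in Control sh and 5.74% ± 2.11 in VprBP sh. TGFB2 went from 1.56% ± 0.308 to 64.9% ± 5.49 and TGFB3 from 0.495% ± 0.175 to 29.3% ± 7.52. The summed level of the family was 1392 ± 241 normalized counts per kilobase in Control sh and 334 ± 2.69 in VprBP sh, so the higher TGFB2 and TGFB3 did not make up in level for the lower TGFB1. In the activin subunits INHBA made up 92.2% ± 3.82 in Control sh and 0.152% ± 0.159 in VprBP sh, with INHBB as the rest. Here the sum was larger in VprBP sh, at 641 ± 23.4 normalized counts per kilobase against 244 ± 71.1. These shares were described and not tested.

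**Figure D3:**
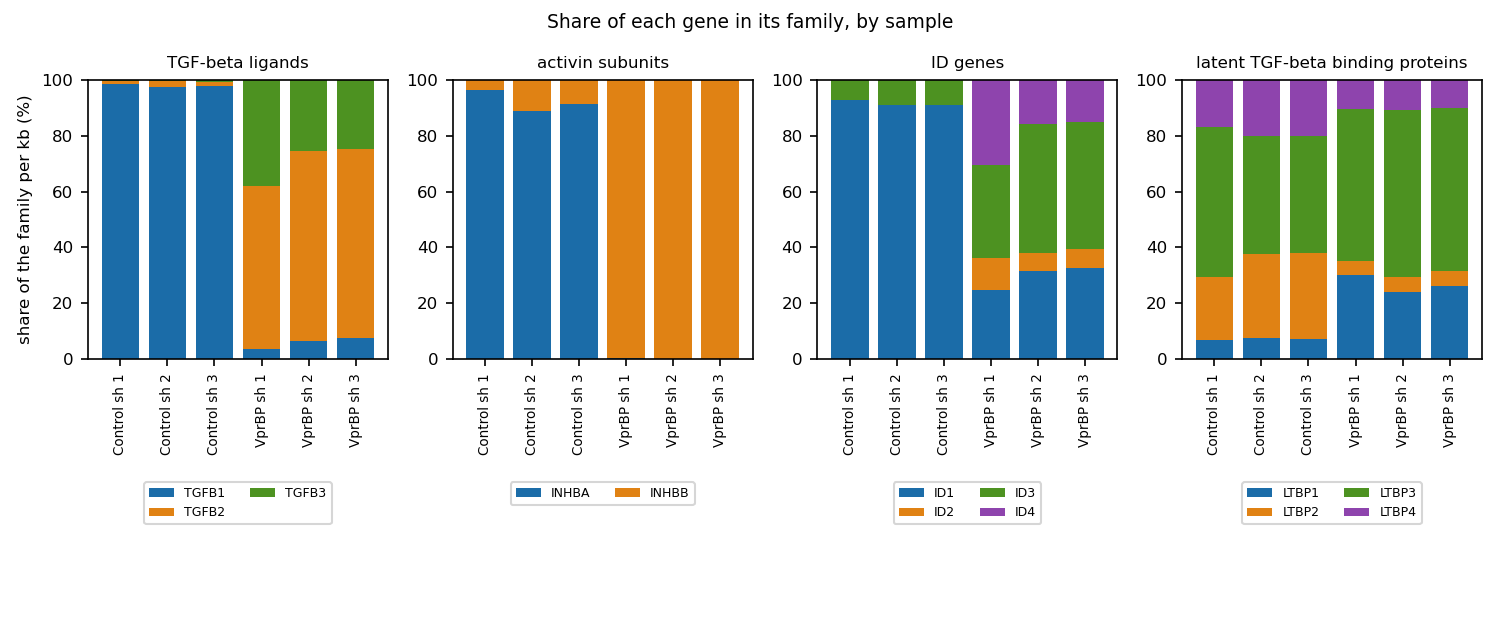
Share of each gene in the summed per-kilobase level of its family, with 1 bar per sample, for TGF-beta ligands, activin subunits, ID genes and latent TGF-beta binding proteins. TGFB1, INHBA and ID1 fill most of the bar in every Control sh sample, and TGFB2, INHBB and ID3 hold the largest share in every VprBP sh sample.

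Of 12 receptor and co-receptor genes tested, 5 were called, 3 higher and 2 lower. This share of 41.7% was near that of all genes (46.4%), as was the median absolute log2 fold change of 0.81 (0.92 over all genes). TGFBR1, the type I TGF-beta receptor, stood at 1963, 1636 and 1669 normalized counts in Control sh and 2059, 1851 and 1736 in VprBP sh (log2 fold change 0.10, SE 0.10, adjusted p = 0.395), and the groups overlapped. TGFBR2, the type II receptor that binds TGF-beta, stood at 2317, 2338 and 2466 against 1054, 1117 and 1164 (log2 fold change -1.09, SE 0.08, adjusted p = 1.34e-06). All VprBP sh samples were below the controls, but with scaling by library size alone the log2 fold change was -0.88, under the 2-fold limit. TGFBR3, the co-receptor betaglycan, was not called, with 525, 533 and 443 against 466, 414 and 408 (log2 fold change -0.22, SE 0.12, adjusted p = 0.115) and overlapping groups. ENG, the co-receptor endoglin, was lower, with 2584, 1994 and 1906 in Control sh and 626, 788 and 734 in VprBP sh (log2 fold change -1.59, SE 0.14, adjusted p = 4.11e-06). BMPR2, the type II BMP receptor, was higher, with 1037, 880.5 and 848 against 2604, 2536 and 2498 (log2 fold change 1.47, SE 0.10, adjusted p = 5.88e-07). BMPR1B, a type I BMP receptor, was also higher, with 85.8, 68.5 and 51.2 against 152, 188 and 191 (log2 fold change 1.38, SE 0.22, adjusted p = 0.00025). For BMPR2, BMPR1B and ENG the groups did not overlap.

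The other type I and type II receptors stayed under 2-fold. BMPR1A, a type I BMP receptor, stood at 840.3, 812 and 789 normalized counts in Control sh and 1016, 947 and 911 in VprBP sh (log2 fold change 0.24, SE 0.09, adjusted p = 0.0396). ACVR1, a type I receptor for BMPs and activin, stood at 415, 367 and 388 against 622, 685 and 694 (log2 fold change 0.78, SE 0.11, adjusted p = 9.5e-05). In both genes the VprBP sh samples were above all controls. ACVR1B, the activin type I receptor, stood at 1223, 1101 and 1116 against 697, 803 and 836 (log2 fold change -0.56, SE 0.10, adjusted p = 0.000736), with all VprBP sh samples below the controls. ACVR2A, an activin type II receptor, stood at 124, 85.9 and 117 against 193, 209 and 184 (log2 fold change 0.84, SE 0.18, adjusted p = 0.00162), and it passed 2-fold only with scaling by library size alone, at 1.05. ACVR2B stood at 416, 265 and 297 against 224, 279.5 and 308 (log2 fold change -0.26, SE 0.19, adjusted p = 0.235) with overlapping groups, and its sign turned to 0.07 without replicate 1 of both groups. The exception among the membrane proteins in size was BAMBI, a pseudoreceptor that lacks the kinase domain and dampens TGF-beta and BMP signals (chr10:28677510-28682932, hg38, plus strand). BAMBI was at 0 counts in every Control sh sample and at 372, 637 and 601 normalized counts in VprBP sh, at least 168-fold higher against a floor of 3 counts per library (adjusted p = 9.5e-07). It passed the filter only through VprBP sh.

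**Figure D4:**
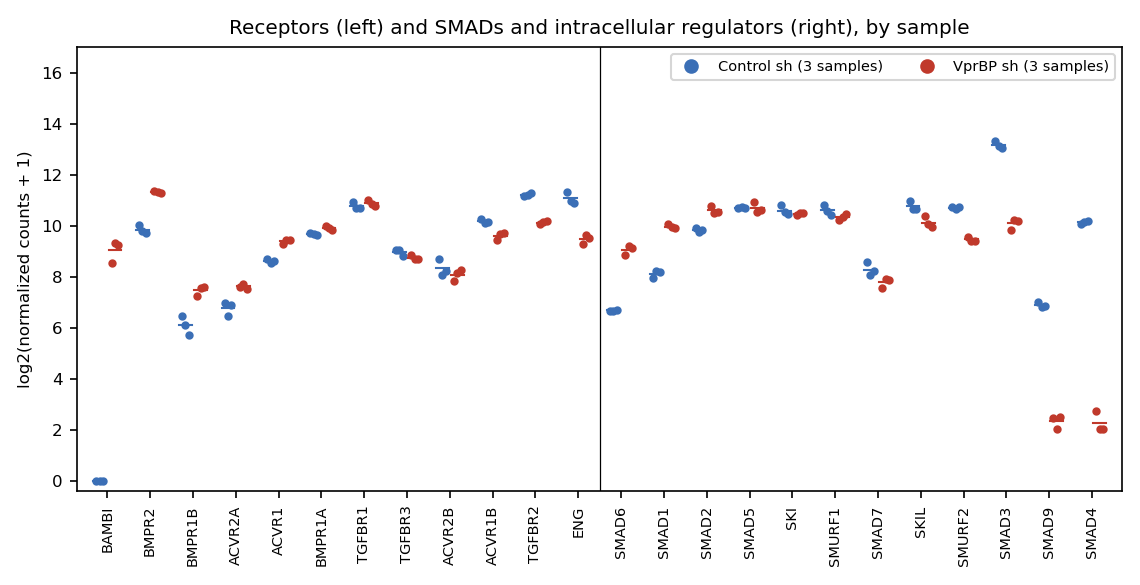
Normalized counts of receptors and of SMADs with their intracellular regulators on a log2(value + 1) axis, with 1 point per sample and a short line at each group mean of the plotted values. Most receptor points lie close together in the 2 groups, whereas BAMBI is at 0 in Control sh, and SMAD4 and SMAD9 lie near the bottom of the axis in VprBP sh.

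Of 12 SMAD and intracellular regulator genes tested, 6 were called, 2 higher and 4 lower (50%, near the 46.4% of all genes). SMAD4, the common partner of all receptor-regulated SMADs (chr18:51028394-51085045, hg38, plus strand), was counted 931, 1031 and 1207 times in the Control sh samples and 5, 3 and 4 in the VprBP sh samples. In normalized counts these were 1079, 1121 and 1144 against 5.58, 3.12 and 3.07 (log2 fold change -8.15, SE 0.19, adjusted p = 1.11e-09). Set against the summed VprBP sh count over the summed library scaling, the Control sh mean gave a ratio of 294 (95% interval 168 to 569). Ratios of this kind are given for some genes where a group had few counts, and their interval is the exact Poisson one of the summed low count, which covers counting error only. SMAD4 passed the filter only through Control sh. SMAD4 was thus near the floor of 3 counts in VprBP sh while well above it in every control. A protein-coding annotation on the same strand shares up to 4.9% of the exonic bases of SMAD4. SMAD3, which carries the TGF-beta and activin signal, was 8.41-fold lower, with 10311, 8833 and 8463 normalized counts in Control sh and 914, 1191 and 1174 in VprBP sh (log2 fold change -3.07, SE 0.13, adjusted p = 3.34e-08). SMAD2, the other SMAD of that branch, stayed under 2-fold, with 964, 859 and 907 against 1741, 1451 and 1479 (log2 fold change 0.77, SE 0.10, adjusted p = 7.33e-05). SMAD2 and SMAD3 therefore differed in opposite directions, and the groups were apart for both.

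On the BMP branch, SMAD1 was higher, with 246, 296 and 290.1 normalized counts in Control sh and 1057, 974 and 948 in VprBP sh (log2 fold change 1.84, SE 0.11, adjusted p = 3.97e-07). SMAD5 overlapped between the groups, with 1644, 1706 and 1645 against 1942, 1498 and 1575 (log2 fold change 0.01, SE 0.11, adjusted p = 0.967), and its sign depended on the scaling. SMAD9 was lower, with 129, 109.8 and 113 against 4.47, 3.12 and 4.6 (log2 fold change -4.79, SE 0.29, adjusted p = 3.42e-07), and it was near the floor in VprBP sh and passed the filter only through Control sh. Its ratio of Control sh to VprBP sh was 28.5 (95% interval 16.7 to 53.5). The 3 BMP-branch SMADs thus gave a higher, an uncalled and a lower value. Of the inhibitory SMADs, SMAD6, which acts mainly on BMP signals, was higher, with 101, 100 and 102 in Control sh and 462, 579.8 and 563 in VprBP sh (log2 fold change 2.40, SE 0.14, adjusted p = 2.37e-07). SMAD7, which acts on both branches, was not called, with 376, 265 and 294 against 188, 237 and 232 (log2 fold change -0.51, SE 0.17, adjusted p = 0.019), although all VprBP sh samples were below the controls. SMURF2, a ubiquitin ligase that targets receptors and SMADs, was lower, with 1706, 1594 and 1695 against 757, 678 and 675 (log2 fold change -1.25, SE 0.09, adjusted p = 1.2e-06).

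The remaining intracellular regulators were not called. SMURF1, the related ligase, stood at 1802, 1519 and 1362 normalized counts in Control sh and 1190, 1285 and 1390 in VprBP sh (log2 fold change -0.28, SE 0.12, adjusted p = 0.0538), and SKI, a repressor of SMAD transcription, stood at 1794, 1469 and 1386 against 1351, 1432 and 1424, with a log2 fold change of -0.14 (adjusted p = 0.247). Both overlapped between the groups, and the sign of SKI turned to 0.07 with scaling by library size alone. SKIL, its relative, stood at 1980, 1601 and 1620 against 1310, 1063 and 982 (log2 fold change -0.63, SE 0.13, adjusted p = 0.00144), below all controls but under 2-fold. SMURF1 shares up to 11.7% of its exonic bases with a gene on the opposite strand.

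Because SMAD4 was close to 0 in VprBP sh, the 19 protein-coding genes of the table that start within 3 Mb of it were plotted, SMAD4 and 18 others, a choice made after the value of SMAD4 was seen. The gene on its far side, MEX3C, starting 0.15 Mb away, had counts of 816, 936 and 981 in Control sh and 1164, 1169 and 1668 in VprBP sh. It was not called (log2 fold change 0.39, SE 0.09, adjusted p = 0.00226). ELAC1, 0.06 Mb before SMAD4, had 51, 58 and 82 against 16, 9 and 16 and was lower (log2 fold change -2.35, SE 0.31, adjusted p = 7.17e-05). ME2, 0.15 Mb before it, had 769, 931 and 1118 against 669, 535 and 786 and stayed under 2-fold (log2 fold change -0.64, SE 0.13, adjusted p = 0.00137). In normalized counts all its VprBP sh samples were below the controls. Of the 18 others, 2 were lower (ELAC1 and LIPG), 3 were higher, 11 were not called and 2 were not tested. Of all genes tested, 22.0% were lower and 24.5% higher. ELAC1 passed the filter in full only in Control sh, and MAPK4, called higher, only in VprBP sh. LIPG, 1.47 Mb before SMAD4, had 455, 373 and 357 counts against 168, 168 and 199 (log2 fold change -1.31, SE 0.18, adjusted p = 0.000101), and MRO, 0.23 Mb before it, was near 0 in both groups with 0, 2 and 8 against 3, 0 and 1. The nearest genes with higher counts on each side of SMAD4 and ELAC1, ME2 and MEX3C, were counted in all samples. Copy number is not measured by these data.

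**Figure D5:**
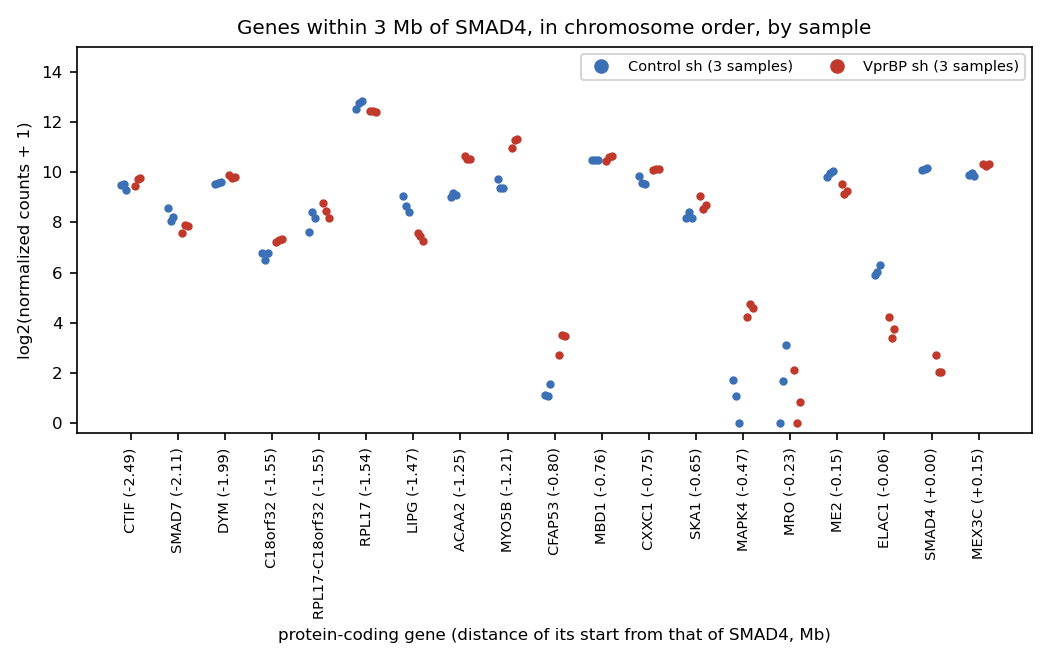
Normalized counts of the 19 protein-coding genes of the table that start within 3 Mb of SMAD4, in chromosome order, with the distance of each gene's start from that of SMAD4 in Mb, on a log2(value + 1) axis and with 1 point per sample. ELAC1 and SMAD4 lie lower in VprBP sh, and their neighbours ME2 and MEX3C are detected in every sample. The ME2 points are somewhat lower in VprBP sh and the MEX3C points somewhat higher.

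Of 5 target genes tested, 4 were called, 2 higher and 2 lower, where 46.4% of all genes were called. Both higher calls, ID2 and ID4, passed the filter in full only in VprBP sh, so that 2 of the 3 targets that passed it in every sample were called. The ID genes encode inhibitors of basic helix-loop-helix transcription factors and are known targets of BMP SMADs. ID1 (chr20:31605283-31606515, hg38, plus strand) stood at 21364, 23800 and 23108 normalized counts in Control sh and 532, 893 and 916 in VprBP sh (log2 fold change -4.86, SE 0.20, adjusted p = 3.23e-08), 29.1-fold lower. ID2 was higher, with 10.4, 8.7 and 15.2 against 329, 245 and 248 (log2 fold change 4.55, SE 0.25, adjusted p = 2.04e-07). ID4 (chr6:19837370-19842197, hg38, plus strand) had counts of 1, 0 and 4 in Control sh and 2309, 1698 and 2200 in VprBP sh, a ratio of 1140 (95% interval 489 to 3512) that rests on these few control counts (adjusted p = 1.63e-08). Without Control sh replicate 3 the log2 fold change of ID4 moved from 10.06 to 11.51. ID3 stayed under 2-fold, with 1562, 2258 and 2166 against 700.1, 1274 and 1231 normalized counts (log2 fold change -0.90, SE 0.22, adjusted p = 0.00415). It crossed 2-fold by DESeq2 (-1.02) and when Control sh replicate 1, VprBP sh replicate 2 or VprBP sh replicate 3 was left out (-1.05, -1.05 and -1.02).

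Per kilobase, ID1 made up 91.7% ± 1.07 (SD, n = 3) of the summed ID level in Control sh and 29.5% ± 4.32 in VprBP sh, ID3 8.27% ± 1.07 and 41.8% ± 7.14, ID2 0.0349% ± 0.0101 and 8.25% ± 2.85, and ID4 0.00169% ± 0.00193 and 20.4% ± 8.55. The sum was 25261 ± 1671 normalized counts per kilobase in Control sh and 2648 ± 391 in VprBP sh. The gain of ID2 and ID4 was thus small beside the loss of ID1 in level. TGFBI, a secreted matrix protein named for its induction by TGF-beta, had 43128, 38084 and 38213 normalized counts in Control sh and 499, 1044 and 1193 in VprBP sh (log2 fold change -5.44, SE 0.30, adjusted p = 1.85e-07), 43.5-fold lower with no overlap.

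The 250 bases before the annotated start of 4 genes are printed because these genes are known feedback or target genes of SMADs and ran in opposite directions here, SMAD6, BAMBI and ID4 higher and ID1 lower. Sequences are from RefSeq (GRCh38.p14), whose starts can differ by a few bases from those of the deposited table, each on the plus strand and 5′ to 3′, and capitals mark a match to a searched motif. SMAD6 covers chr15:66701986-66702235, BAMBI chr10:28677271-28677520, ID1 chr20:31605039-31605288 and ID4 chr6:19837120-19837369.
SMAD6: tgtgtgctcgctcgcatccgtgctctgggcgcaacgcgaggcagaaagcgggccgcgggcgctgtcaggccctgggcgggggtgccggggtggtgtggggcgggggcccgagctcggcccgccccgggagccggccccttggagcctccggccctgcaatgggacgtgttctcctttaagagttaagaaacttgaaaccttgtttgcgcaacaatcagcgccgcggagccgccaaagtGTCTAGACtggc
BAMBI: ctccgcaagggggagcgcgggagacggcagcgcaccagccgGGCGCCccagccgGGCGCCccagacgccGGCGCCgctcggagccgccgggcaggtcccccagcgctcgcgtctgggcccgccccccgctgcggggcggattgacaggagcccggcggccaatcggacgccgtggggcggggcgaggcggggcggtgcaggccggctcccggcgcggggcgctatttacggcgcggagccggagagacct
ID1: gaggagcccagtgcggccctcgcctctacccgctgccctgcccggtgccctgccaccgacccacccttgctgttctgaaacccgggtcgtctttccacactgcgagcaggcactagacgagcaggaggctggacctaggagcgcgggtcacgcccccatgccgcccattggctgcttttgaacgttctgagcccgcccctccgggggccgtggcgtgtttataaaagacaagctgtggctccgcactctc
ID4: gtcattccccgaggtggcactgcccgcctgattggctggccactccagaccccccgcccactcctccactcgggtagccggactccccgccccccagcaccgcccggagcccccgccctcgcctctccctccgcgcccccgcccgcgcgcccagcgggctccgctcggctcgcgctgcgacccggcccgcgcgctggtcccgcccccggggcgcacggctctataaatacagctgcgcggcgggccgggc

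Both strands were searched for 3 motifs known from SMAD binding, the palindromes GTCTAGAC and GGCGCC and the shorter CAGACA, none of which contains another. The SMAD6 window held 1 GTCTAGAC whose first base lies 12 bases before the start, and this motif was in 0.182% of the windows of 35116 RefSeq starts. SMAD6 was the only listed gene with it, among 77 RefSeq starts of the 45 listed genes that matched by symbol. The BAMBI window held 3 GGCGCC, with first bases 209, 196 and 181 bases before the start, and 16.4% of all windows and 20 of the 77 listed ones (26.0%) held this motif. Its window was 81.2% G or C, against 68.0% for SMAD6. CAGACA was in 13.6% of all windows and in 13 of the 77 (16.9%). The ID1 and ID4 windows held none of these letters, which says nothing of sites elsewhere or of binding.

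Of 9 extracellular regulators tested, 8 were called, all lower in VprBP sh, where 22.0% of all genes were lower. FST and NOG among them passed the filter only through Control sh, and the call of LTBP3 was lost without replicate 1 of either group. Of the 7 that passed the filter level in every sample 6 were lower, LTBP3 among them. The nearest share of all genes is 35.8% called in either direction, from the fit that required at least 10 counts in every sample. Follistatin and FSTL3 bind activins outside the cell. FSTL1, a secreted follistatin-like glycoprotein (chr3:120392293-120450993, hg38, minus strand), had 15042, 16021 and 16085 normalized counts in Control sh and 16.8, 13.5 and 19.9 in VprBP sh (log2 fold change -9.84, SE 0.14, adjusted p = 2.14e-10). FST, follistatin itself, had counts of 529, 573 and 719 in Control sh and 0, 4 and 3 in VprBP sh, a ratio of Control sh to VprBP sh of 289 (95% interval 140 to 718) (adjusted p = 1.64e-08). FSTL3, a second activin-binding follistatin, had 1681, 2348 and 2176 normalized counts against 153, 115 and 143 (log2 fold change -3.92, SE 0.16, adjusted p = 3.22e-08). Without VprBP sh replicate 2 the log2 fold change of FST moved from -8.10 to -8.76. In all 3 genes every VprBP sh sample was below the lowest control. NOG, the BMP antagonist noggin, was low in all samples, with counts of 17, 12 and 13 in Control sh and 1, 0 and 0 in VprBP sh, a ratio of Control sh to VprBP sh of 47.5 (95% interval 8.53 to 1877) (adjusted p = 0.000167). Its log2 fold change of -5.09 moved to -6.94 without VprBP sh replicate 1 and to -4.49 without VprBP sh replicate 3. BMP1, a protease that cleaves procollagens and the BMP antagonist chordin, had 7381, 6104 and 6052 normalized counts in Control sh and 980.3, 1093 and 1075 in VprBP sh (log2 fold change -2.63, SE 0.11, adjusted p = 2.36e-08).

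The latent TGF-beta binding proteins tether TGF-beta to the matrix. LTBP2, a matrix member of the family that does not bind latent TGF-beta, had 6464, 5955 and 5898 normalized counts in Control sh and 359.5, 513 and 497 in VprBP sh (log2 fold change -3.74, SE 0.14, adjusted p = 1.48e-08). LTBP4 had 2868, 2356 and 2265 against 429.9, 612 and 569 (log2 fold change -2.21, SE 0.15, adjusted p = 6.68e-07). Both were lower in every VprBP sh sample. LTBP3 was also called lower, with 8928, 4760 and 4574 against 2183, 3280 and 3167 (log2 fold change -1.08, SE 0.26, adjusted p = 0.00347), but Control sh replicate 1 stood well above the other controls. Without Control sh replicate 1 its log2 fold change was -0.70, without VprBP sh replicate 1 -0.92, without both -0.53, and with scaling by library size alone -0.86. LTBP1 was not called, with 1535, 1156 and 1053 against 1622, 1767 and 1911 (log2 fold change 0.50, SE 0.14, adjusted p = 0.00805), and its VprBP sh samples were above the controls. Per kilobase, LTBP3 held the largest share of this family in both groups, 45.9% ± 6.92 (SD, n = 3) in Control sh and 57.5% ± 2.81 in VprBP sh. LTBP1 went from 7.21% ± 0.353 to 26.7% ± 3.08, LTBP2 from 27.7% ± 4.71 to 5.23% ± 0.115 and LTBP4 from 19.1% ± 1.94 to 10.5% ± 0.336. The family sum was 2676 ± 650 and 1029 ± 172 normalized counts per kilobase.

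A second list of 104 other genes of the pathway, also chosen with earlier results of these data known, was read in the same fit. The table held 81 of them and 73 were tested, of which 41 were called (56.2%, against 46.4% of all genes), 15 higher (24.5% of all genes) and 26 lower (22.0% of all genes). Many of these calls came from genes that passed the filter in full in a single group, 15 in Control sh and 11 in VprBP sh. Of the 47 that passed the filter level in every sample, 15 were called (31.9%), 4 higher and 11 lower. In a separate fit that required at least 10 counts in every sample, 35.8% of all genes were called. There 5 genes of the second list were higher and 11 lower. The filters behind the 2 shares differ, so they compare only roughly, and by them the list was not seen above the background. Of 8 other ligands tested, 6 were higher and 1 was lower, but 5 of the 8 passed the filter only through VprBP sh, and 1 of the 2 that passed it in every sample was called. Of 23 other targets, 13 were lower and 1 was higher, but 9 passed the filter only through Control sh, and 4 of the 13 that passed it in every sample were called, all lower. Other extracellular regulators gave 4 higher and 7 lower of 12, of which 3 passed the filter level in every sample, other receptors and co-receptors 2 higher and 1 lower of 3, and other intracellular regulators 2 higher and 4 lower of 27. Among those with the largest decrease, FBN2, the matrix protein fibrillin-2, and SNAI2, a transcription factor of epithelial to mesenchymal transition, were at 0 in every VprBP sh sample and at least 1370-fold and 597-fold lower against a floor of 3 counts per library. GDF15, a stress-induced ligand, and PTHLH, the parathyroid hormone-related peptide, had 0 to 3 counts in the VprBP sh samples. Their ratios of Control sh to VprBP sh were 1073 (95% interval 460 to 3304) and 1342 (95% interval 372 to 11084).

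Among the 5 with the largest increase, CDKN2B, the cell cycle inhibitor p15 and a known TGF-beta target, was at 0 in every Control sh sample and had 611, 777 and 1017 counts in VprBP sh, at least 237-fold higher against that floor. It was the only other target called higher. RGMA, a BMP co-receptor, stood at 1.16, 1.09 and 1.9 normalized counts in Control sh and at 308, 407 and 418 in VprBP sh, a ratio of 268 (95% interval 105 to 984) over 1 to 2 counts per control. AMH, the anti-Müllerian hormone, had 13.9, 17.4 and 17.1 normalized counts against 607, 1016 and 985 (log2 fold change 5.74, SE 0.27, adjusted p = 6.05e-08). ZFYVE16, an endosomal protein that binds SMADs, had 570.3, 748 and 702 against 2137, 2001 and 1955 (log2 fold change 1.59, SE 0.11, adjusted p = 1.01e-06), and RGMB, a second BMP co-receptor, had a log2 fold change of 1.47 (adjusted p = 2.4e-06). For all of these named genes the groups did not overlap.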

How the data were processed

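Libraries were made from extracted RNA and sequenced by the authors, per their methods as strand-specific libraries after mRNA capture. By the same methods, reads were aligned with STAR to hg38 and counted with a GENCODE annotation in Partek Flow. The labels and the methods name different library kits, and whether counting used strand is not given in the sources used here. The deposited values are estimated counts (59.4% of them whole), which were rounded to whole numbers. The labels give source LD611 and cell line G361 for all samples.

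Fits ran over the whole table with edgeR 4.0.16 in R 4.3.3: upper quartile factors (quantile 0.75), filterByExpr with a minimum count of 10, and the quasi-likelihood test of 3 VprBP sh against 3 Control sh samples, with no block. The SE was taken from the log2 fold change and the F statistic (its size over the root of F). Normalized counts are counts divided by the effective library size relative to its mean. The floor of 3 counts equals 2.3 to 3.48 normalized counts and, like the exact Poisson intervals of low counts, covers counting error only. Gene ends were taken as 1 below the deposited stop, which matched GENCODE 44 for 93.4% of genes, and transcript lengths and exon overlaps are from that release. The tests were also run on simulated counts with a single fixed size of change and a common dispersion. That setting is simpler than these data, and its outcome is not reported here. Alternatives used TMM, library size alone, DESeq2 1.42.0, limma 3.58.1 (voom), other filters, a replicate block, replicates 2 and 3 summed, and left-out replicates. The design had assumed whole counts.

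Members and lists were chosen with earlier results of these data known. Per-sample values are given for called genes whose higher group averaged 100 or more normalized counts, and for receptors and SMAD-group genes with that mean in any case. Of the other pathway genes, the 5 largest increases and the 5 largest decreases at that level were chosen, of which 1 is not reported here.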

Additional observations from a re-analysis of the deposited data

How the results depend on the processing

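Of the 49 listed genes, 38 kept direction and call under every alternative fit in which they were tested. Requiring at least 10 counts in every sample left 39 of them to test, so genes near 0 in either group were not retested there. Alternatives that changed only the calling rule were not part of this count. The number called higher (11) was 7 when at least 10 counts were required in every sample, where 39 listed genes were tested, and 18 with the adjusted p alone. The other pathway genes called higher (15) numbered 5 and those called lower (26) 11 under that filter, which leaves out genes absent from either group, and 41 were lower with the adjusted p alone. With 1 replicate left out at a time, listed genes called numbered 11 to 12 higher and 19 to 20 lower, other genes 14 to 15 higher and 25 to 29 lower, and the DCAF1 log2 fold change ran from -0.82 to -0.46. Without replicate 1 of both groups, a setting chosen after seeing the data, 12 listed genes were higher and 18 lower. DCAF1 was -0.37 with library size alone and -0.46 with replicates 2 and 3 summed, neither past the threshold, and the cause was not tested. Scaling by library size alone moved the median of all genes from 0.08 to 0.29 and that of the listed genes from -0.32 to -0.11, and gave 14 higher and 17 lower listed genes.

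Among the listed genes, signs turned under these alternatives only in genes that were not called. TGFBR1 was -0.02 by DESeq2, SKI 0.07 with library size alone and 0.00 without replicate 1 of both groups, and ACVR2B 0.07 in the latter. SMAD5 was -0.09 with TMM, -0.11 with DESeq2, -0.01 with voom, -0.02 with no filter, 0.00 with the replicate block, -0.01 without Control sh replicate 1 or 3, and -0.12 without VprBP sh replicate 1 or without replicate 1 of both groups. Calls changed in BMP4 (1.03 with library size alone), BMP8A (1.11 with library size alone, 1.05 without Control sh or VprBP sh replicate 1) and BMP6 (-2.08 without Control sh replicate 2 and -2.80 without VprBP sh replicate 1).

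Samples with the same number did not deviate together (correlations of -0.145, -0.03 and -0.106 over 13320 genes), so the numbers were not taken as pairs. With the replicate block, 11 listed genes were higher and 19 lower, and 14 and 26 of the other genes.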
